A study of Mus musculus with 18 samples.

Results

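The autophagy machinery was examined in mouse liver through 39 genes, taken as the rows of the expression table whose symbol stood in a list of core autophagy genes, autophagy receptors and their transcription factors. All 39 were among the 19057 symbols of the table, and all 39 had enough signal to be tested in every comparison. By role they were 4 genes of the initiation kinase complex, 6 of the phosphatidylinositol 3-kinase complex, 5 of ATG9 vesicles and lipid transfer, 11 conjugation enzymes and proteases, 5 LC3 and GABARAP proteins, 6 cargo receptors and 2 transcription factors.

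Livers of ICR mice aged 10 weeks were read by RNA sequencing in 6 groups of 3 mice. Con were control mice, and STZ mice had received streptozotocin, a toxin of the insulin-producing beta cells of the pancreas that is used to model type 1 diabetes. A10-FMT mice were STZ mice that were then given, by mouth, small-intestinal microbiota of donors dosed with alginate oligosaccharide (AOS) at 10 mg/kg, and Con-FMT mice were STZ mice given microbiota of control donors. AOS mice had AOS at 10 mg/kg and no STZ, and STZ+AOS mice had both agents; these last 2 groups occur in the sample labels alone, and how and when AOS was given to them is not given in the sources used here. Streptozotocin was injected 1 time, the transplants came from pooled donor material, and no group received a transplant without STZ. The labels number the samples of a group 1 to 3 and say no more about them, so p-values measure the spread between these samples.

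Autophagy delivers parts of the cytoplasm to the lysosome inside a membrane sac, the autophagosome. A kinase complex starts the process, a lipid kinase complex marks the membrane, ATG9 vesicles and lipid transfer proteins feed it, and ubiquitin-like enzymes attach LC3 and GABARAP proteins to it, to which receptors tie the cargo. In the liver the process is known to be raised by fasting and restrained by insulin and amino acids, largely through the kinase mTORC1 and through transcription factors such as TFEB, TFE3 and the FOXO proteins. Messenger RNA levels, which were measured here, do not give the flow of cargo through the pathway.

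Expression was given by the authors as RPKM, a read number corrected for how long the transcript is and how many reads the library had, so levels can be set side by side between genes. Within Con, mean levels ran from 1.68 RPKM for Atg10 to 190 RPKM for Gabarap, with Sqstm1 (176) and Gabarapl1 (127) next in order (order of means, n = 3 mice). Read totals are not part of such values, but the spacing of low values in 49 genes gave relative depths of 0.93 to 1.08 over the 18 libraries. These depths differed by treatment, at 1.03 to 1.08 in Con and AOS and 0.93 to 0.99 in STZ and STZ+AOS, without overlap. Depths of the transplanted mice were 0.94 to 1.03. The part of this difference in depth in the changes of the autophagy genes was not tested. The liver label was checked against Alb, the defining hepatocyte marker, which was at 24367, 37253 and 29413 RPKM in Con and 28705, 36492 and 25070.2 RPKM in STZ.

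STZ mouse 3, STZ+AOS mouse 3 and Con-FMT mouse 1 stood apart from their groups, each in its own way. STZ mouse 3 lay nearer to Con than the other STZ mice did, at a distance of 53.7 from the Con mean over all genes on the log2 scale, against 90.6 and 89.1 for STZ mice 1 and 2. It had the lowest value of its group in 22 of the 39 genes, and the insulin-responsive gene Igfbp1, an insulin-like growth factor binding protein, was at 334, 976 and 190.3 RPKM in STZ mice 1 to 3. STZ+AOS mouse 3 carried transcripts of pancreatic digestive enzymes, with 36.5 RPKM of Ctrb1 and 10.1 RPKM of Amy2a5, which were at 0.09 RPKM or less in the other 2 mice of its group, and it had the highest value of its group in 27 of the 39 genes. Its distance from the Con mean, 84.5, was close to those of STZ+AOS mice 1 and 2 (84.6 and 85.1). Counts of members called in STZ+AOS against AOS as deposited are given with and without this mouse, with the members whose calls were lost. Counts after scaling and counts of related lists include it. Con-FMT mouse 1 lay at 68.8 from the Con mean, against 42.8 and 50.6 for Con-FMT mice 2 and 3. It had the highest value of its group in 29 of the 39 genes. Since these 3 mice were singled out by their measured expression, values without them describe how far 1 library carries a result and are not a second test.

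Autophagy genes were mostly higher in STZ than in Con. With limma on log2(RPKM + 1), 22 of the 39 genes (56.4%) passed an adjusted p of 0.05, all of them higher in STZ, against 38.5% of all 10602 genes tested, of which 33% were higher and 5.52% lower. All 6 cargo receptors rose, as did 4 of 6 genes of the phosphatidylinositol 3-kinase complex, 3 of 5 LC3 and GABARAP genes, 2 of 4 initiation genes, 2 of 5 genes of ATG9 vesicles and lipid transfer, 4 of 11 conjugation enzymes and proteases, and 1 of 2 transcription factors. The median log2 change of the 39 genes was 0.37, against 0.21 for all genes tested. In 27 of the 39 the STZ and Con mice did not overlap, each time with STZ higher, against 47.7% of all genes without overlap in either direction. Values in parentheses after a gene, where nothing else is said, are log2 changes. In tissue RNA, fewer cells of a type and less RNA per cell cannot be told apart.

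Most of the liver transcriptome was also higher in these values, since 75.2% of all genes tested had a log2 change above 0. Scaling by median ratios, in which each library is divided by its typical ratio to a reference made of all libraries, brought the median change of all genes from 0.21 to -0.01 (log2), and the share of higher genes among all calls from 85.7% to 51.4%. After this scaling 10 of the 39 autophagy genes were called higher and 2 lower (30.8%, against 27.3% of all genes), and their median change was 0.13. The 10 genes called higher on both scales were Atg14, Rb1cc1, Nbr1, Bnip3, Bnip3l, Ulk1, Gabarapl1, Uvrag, Map1lc3b and Optn, and the 2 that were called lower only after scaling were Atg16l2 and Ulk2. Without STZ mouse 3, 23 genes were called higher and 1, Ulk2, lower in the values as deposited, against 47.4% of all genes called. Without Con mouse 1, which had the lowest value of its group in 23 of the 39 genes, 14 were called, against 24.2% of all genes.

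**Figure D1:**
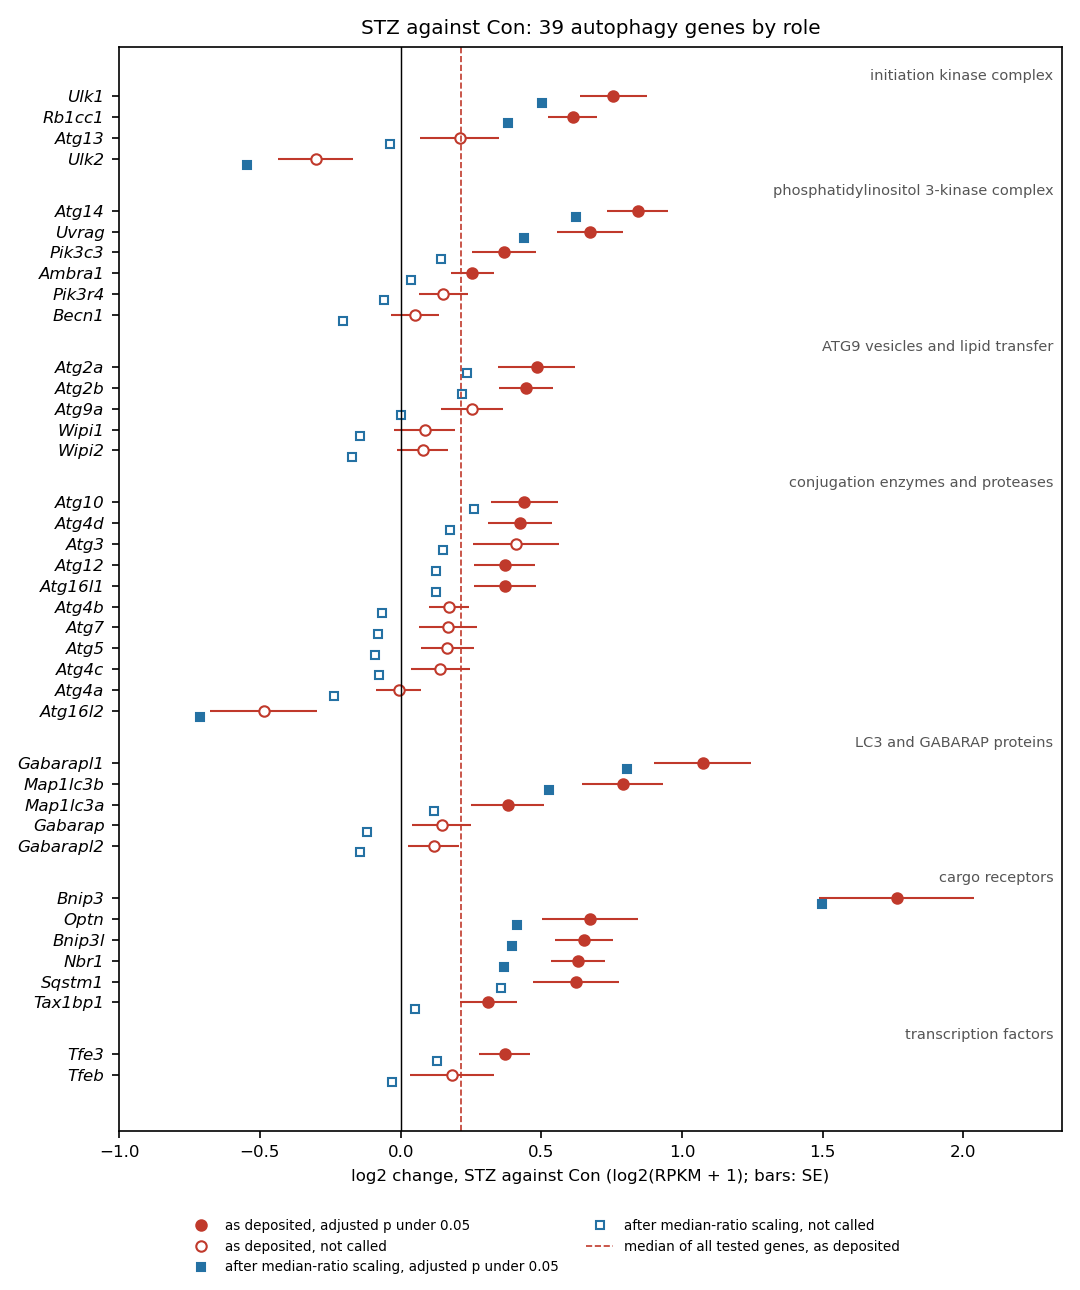
Log2 change of each of the 39 autophagy genes in STZ against Con (x axis, log2(RPKM + 1); 3 mice a group), grouped by role; circles with SE bars are values as deposited, squares are values after median-ratio scaling, filled symbols have an adjusted p under 0.05, and the dashed line is the median of all tested genes (0.21). Bnip3 lies farthest to the right at 1.76, all 6 cargo receptors are filled circles, and Ulk2 and Atg16l2 are the 2 filled squares left of 0.

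Among the initiation genes, the kinase Ulk1 and its scaffold Rb1cc1 rose while the kinase Ulk2 did not. Ulk1, the kinase that mTORC1 and AMPK phosphorylate (chr5:110784488-110810097, GRCm38), was at 11.9, 12.01 and 12.97 RPKM in the Con mice and 22.7, 22.6 and 19.2 RPKM in the STZ mice. The groups did not overlap, and the log2 change was 0.76 (adjusted p = 0.00128, SE 0.12), or 0.50 (adjusted p = 0.0156) after scaling. Rb1cc1, which encodes the scaffold FIP200, was at 4.92, 5.11 and 5.02 RPKM in Con and 7.77, 9.13 and 7.73 RPKM in STZ, with a log2 change of 0.61 (adjusted p = 0.000831, SE 0.09) and of 0.38 (adjusted p = 0.0058) after scaling. Each STZ mouse was above each Con mouse for this gene, of which 8.48% of the 50-base windows also occur in other annotated genes. Ulk2, named here after its values were seen, went the other way, with 11.1, 11.3 and 10.7 RPKM in Con and 7.34, 7.71 and 11.8 RPKM in STZ. STZ mice 1 and 2 lay under all Con mice and STZ mouse 3 above them. The log2 change was -0.30 (adjusted p = 0.0924, SE 0.13) as deposited, -0.55 (adjusted p = 0.0244) after scaling and -0.50 (adjusted p = 0.000623) without STZ mouse 3. Atg13, the regulatory subunit of the complex, had a log2 change of 0.21 (adjusted p = 0.252, SE 0.14).

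In the phosphatidylinositol 3-kinase complex the subunits that distinguish its forms rose, and the shared subunit Becn1 was not called. Atg14 directs the complex to the forming autophagosome (chr14:47540893-47570649), and it was at 3.54, 3.68 and 3.1 RPKM in Con and 7.37, 7.77 and 5.83 RPKM in STZ. The lowest STZ value stood above the highest Con value, and the log2 change of 0.84 (adjusted p = 0.00056, SE 0.11) had the smallest adjusted p of the 39 genes. After scaling it was 0.62 (adjusted p = 0.00142). Uvrag, which takes the place of Atg14 in the form that acts on endosomes and late autophagosomes, was at 5.4, 6.74 and 5.29 RPKM in Con and 9.97, 10.2 and 9.26 RPKM in STZ. Here too the groups did not overlap, with a log2 change of 0.67 (adjusted p = 0.00188, SE 0.12) and of 0.44 (adjusted p = 0.00824) after scaling. Of its exonic bases 17.6% lie over a gene on the opposite strand and the counting is not stated to use strand. The catalytic subunit Pik3c3 (0.37) and the Becn1 partner Ambra1 (0.26) were called higher as deposited and not after scaling. Becn1, the scaffold present in all forms of the complex, was at 21.6, 21.9 and 21.8 RPKM in Con and 21.5, 20.96 and 25.6 RPKM in STZ, where STZ mouse 3 was highest and the other STZ mice lay just below the Con mice. Its log2 change was 0.05 (adjusted p = 0.655, SE 0.09) as deposited and -0.20 (adjusted p = 0.149) after scaling, a change of sign. Of its exonic bases 43.9% overlap Cntd1 on the opposite strand.

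Of the genes that supply membrane, the paralogous lipid transfer proteins Atg2a and Atg2b were called higher, by 0.48 (adjusted p = 0.0175, SE 0.14) and 0.45 (adjusted p = 0.00502, SE 0.10), and neither was called after scaling. Values of Atg2b were 5, 5.07 and 4.65 RPKM in Con and 6.15, 8.21 and 6.89 RPKM in STZ. The scramblase gene Atg9a (0.25) and the phosphoinositide-binding Wipi1 (0.09) and Wipi2 (0.08) were not called, and 42.3% of the windows of Atg9a also occur in another annotated gene.

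The enzymes that attach LC3 to the membrane had the lowest median change of the roles, 0.17 (log2). Of 11 genes, Atg10, Atg12, Atg16l1 and Atg4d were called higher as deposited, with log2 changes of 0.37 to 0.44, and none of these after scaling. Atg12, the ubiquitin-like protein that is joined to Atg5, was at 8.58, 9.43 and 8.8 RPKM in Con and 10.6, 13.1 and 12 RPKM in STZ, with a log2 change of 0.37 (adjusted p = 0.0211, SE 0.11). Its conjugating enzyme Atg10 was the least abundant of the 39 genes, at 1.56, 1.86 and 1.63 RPKM in Con and 3.1, 2.47 and 2.37 RPKM in STZ, with a log2 change of 0.44 (adjusted p = 0.0151, SE 0.12) that the added 1 RPKM makes smaller than the 1.57-fold ratio of the means. Atg7, the activating enzyme on which both conjugation routes depend, was at 12.04, 14.5 and 14.2 RPKM in Con and 16.1, 14.03 and 16.1 RPKM in STZ, and the groups overlapped. Its log2 change of 0.17 (adjusted p = 0.207, SE 0.10) became -0.08 (adjusted p = 0.53) after scaling. The LC3 protease Atg4b was at 7.83, 7.73 and 7.77 RPKM in Con and 8.8, 8.75 and 9.11 RPKM in STZ. The STZ mice were all higher, but the log2 change of 0.17 (adjusted p = 0.0776, SE 0.07) was not called and became -0.07 after scaling. Atg16l2, a paralog of the scaffold Atg16l1, was at 6.94, 4.23 and 6.46 RPKM in Con and 3.95, 5.22 and 2.66 RPKM in STZ, where the groups overlapped. Its log2 change was -0.49 (adjusted p = 0.0624, SE 0.19) as deposited and -0.71 (adjusted p = 0.0189) after scaling. Without STZ mouse 3 it was -0.29 (adjusted p = 0.188) as deposited.

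LC3 and GABARAP genes split by paralog. Gabarapl1 (chr6:129533160-129542346) was at 118, 131 and 129.9 RPKM in Con and 291, 301 and 217 RPKM in STZ. All STZ mice lay above all Con mice, and the mean was 2.13 times that of Con, a log2 change of 1.07 (adjusted p = 0.00129, SE 0.17) and of 0.81 (adjusted p = 0.00252) after scaling. A share of 28.3% of its exonic bases overlaps a gene on the opposite strand. Map1lc3b, which encodes LC3B, the usual marker protein of autophagosomes, was at 44.8, 45.9 and 47.4 RPKM in Con and 86.5, 92.7 and 64.4 RPKM in STZ. The groups were apart, with STZ mouse 3 closest to Con, and the log2 change was 0.79 (adjusted p = 0.00252, SE 0.14) and 0.53 (adjusted p = 0.00961) after scaling. Map1lc3a was called only as deposited (0.38). Gabarap, the most abundant of the 39 genes in Con, was at 180.0, 199 and 190.0 RPKM there and 219, 225 and 187 RPKM in STZ. Neither it (0.15) nor Gabarapl2 (0.12) was called, and both log2 changes were below 0 after scaling.

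Cargo receptors had the highest median change of the roles, 0.64 (log2), led by the mitophagy receptor Bnip3. Bnip3 (chr7:138890836-138909519), an outer mitochondrial membrane protein that binds LC3, was at 41.1, 61.4 and 52.05 RPKM in Con and 211, 243 and 104 RPKM in STZ. Its mean in STZ was 3.61 times that in Con, with no overlap although STZ mouse 3 lay far below STZ mice 1 and 2. The log2 change was 1.76 (adjusted p = 0.00124, SE 0.28), 1.50 (adjusted p = 0.00196) after scaling and 2.13 (adjusted p = 3.02e-05) without STZ mouse 3. In its longest transcript 21.9% of the windows also occur in other annotated genes. Its paralog Bnip3l, known as NIX, was at 19.8, 18.6 and 18.5 RPKM in Con and 28.6, 35.5 and 27.5 RPKM in STZ, with a log2 change of 0.65 (adjusted p = 0.00124, SE 0.10) and of 0.40 (adjusted p = 0.0116) after scaling. The groups were far apart, and 23.4% of its windows also occur in the pseudogene Bnip3l-ps.

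The ubiquitin-binding receptors rose as well. Nbr1 was at 34.5, 39.8 and 37.9 RPKM in Con and 60.1, 57.1 and 57.7 RPKM in STZ, where STZ mouse 3 was level with the other STZ mice. Its log2 change was 0.63 (adjusted p = 0.00103, SE 0.10) and 0.37 (adjusted p = 0.00451) after scaling. Sqstm1, which encodes p62, was at 167, 178 and 183 RPKM in Con and 227, 339.6 and 258 RPKM in STZ, so that the STZ mice were all higher but spread widely. Its log2 change of 0.62 (adjusted p = 0.00951, SE 0.15) was 0.35 (adjusted p = 0.0619) after scaling. Optn was at 18.9, 29.9 and 25.4 RPKM in Con and 42.99, 41.7 and 33.9 RPKM in STZ, with a log2 change of 0.67 (adjusted p = 0.0108, SE 0.17) and of 0.41 (adjusted p = 0.0409) after scaling, with Con mouse 1 well below the other Con mice. Tax1bp1 was called higher as deposited only (0.31). Of the transcription factors that drive lysosome and autophagy genes, Tfe3 was called higher as deposited (log2 change 0.37, adjusted p = 0.00963, SE 0.09). Tfeb was at 3.18, 3.02 and 4.12 RPKM in Con and 4.24, 4.69 and 3.21 RPKM in STZ, overlapped between groups and had a log2 change of 0.18 (adjusted p = 0.346, SE 0.15), or -0.03 after scaling. This overlap came from STZ mouse 3 alone, without which the change was 0.31 (adjusted p = 0.108) as deposited.

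**Figure D2:**
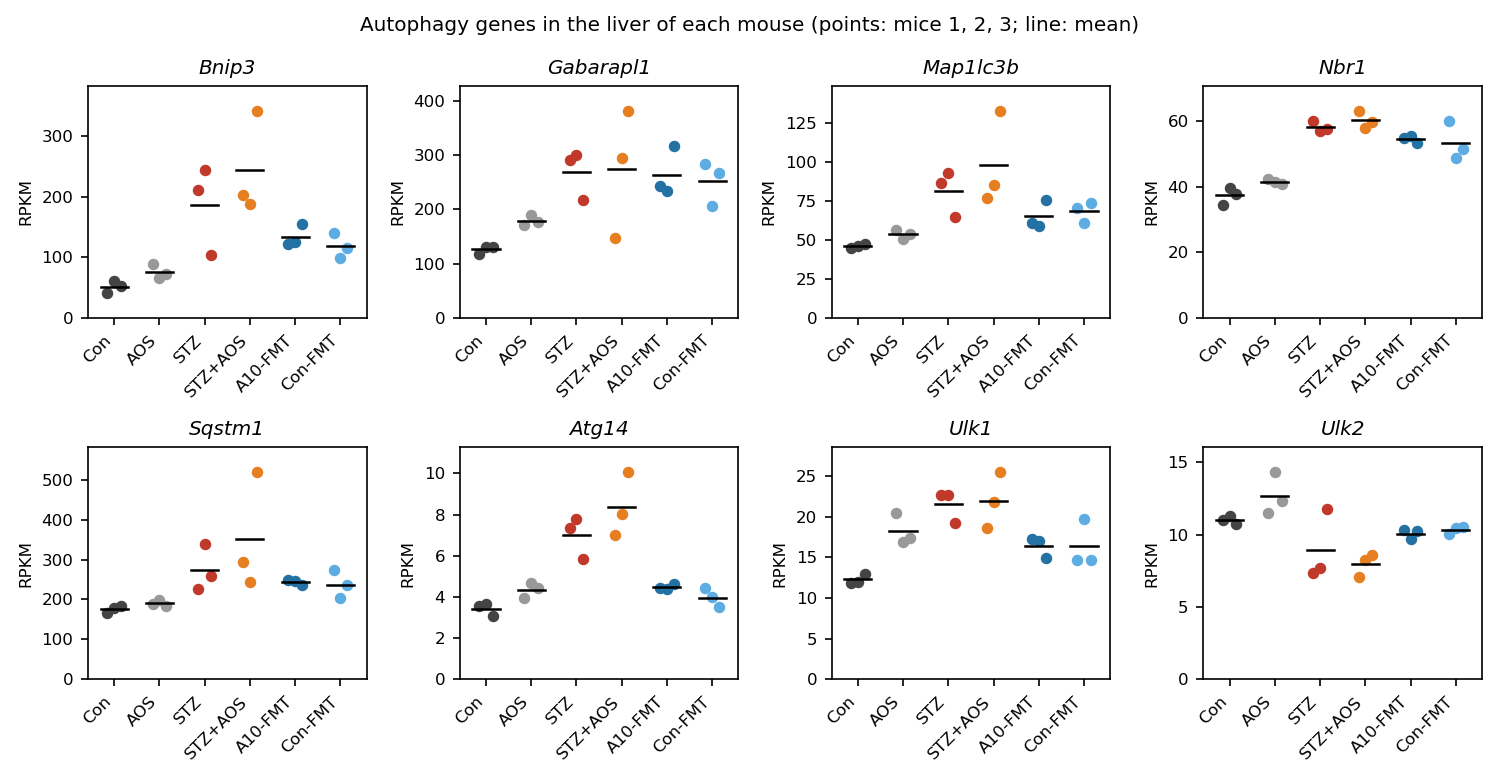
RPKM (y axis, linear, from 0) of 8 autophagy genes in each of the 18 mice, by group; each point is 1 mouse in the order 1, 2, 3 and the line is the group mean. Bnip3 spans 41.1 to 61.4 RPKM in Con and 104 to 243 RPKM in STZ, STZ mouse 3 lies below its group in all genes shown but Nbr1, Sqstm1 and Ulk2, and STZ+AOS mouse 3 is the highest of its group in every gene shown but Nbr1.

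Promoter sequence was read for these genes because TFEB and TFE3 bind sites that contain CACGTG, and FOXO factors bind GTAAACA. RefSeq promoters (GRCm38.p6, 250 bases before to 50 after the start RefSeq gives) were found for 32 of the 39 genes. On either strand CACGTG occurred in 5 of the 32 (15.6%), against 7.15% of all 32851 promoters of this length. The 5 genes were Atg3, Atg5, Atg7, Atg14 and Bnip3. RefSeq and GENCODE place the start more than 500 bases apart in 7 of the 32 genes, among them Atg14 and Atg7 (2215 and 27999 bases), so that their windows do not lie at the GENCODE start. The longer form TCACGTGA, which contains CACGTG, occurred in 1 (3.12%, against 0.974%), and GTAAACA in 0 of 32, against 3.65%. Of promoters whose genes were called higher in both comparisons of STZ-treated with untreated mice, 2 of 12 (16.7%) held CACGTG, and of the other members 3 of 20 (15%). The 250 bases before the start are shown for the gene that changed most, for the gene with more than 1 match and for Atg5, a gene with a match that was not called. Capitals mark CACGTG, and in Atg3 also the longer TCACGTGA.
Bnip3 (chr7:138909507-138909756, minus strand): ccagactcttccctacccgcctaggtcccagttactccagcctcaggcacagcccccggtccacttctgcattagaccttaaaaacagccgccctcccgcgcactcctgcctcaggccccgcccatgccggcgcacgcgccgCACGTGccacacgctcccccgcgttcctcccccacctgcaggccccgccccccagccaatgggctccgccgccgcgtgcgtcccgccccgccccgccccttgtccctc
Atg3 (chr16:45158579-45158828, plus strand): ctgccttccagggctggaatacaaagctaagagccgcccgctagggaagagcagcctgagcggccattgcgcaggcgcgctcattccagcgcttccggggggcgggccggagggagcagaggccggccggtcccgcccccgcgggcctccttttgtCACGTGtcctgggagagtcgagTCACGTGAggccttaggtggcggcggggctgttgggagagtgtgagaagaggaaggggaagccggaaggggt
Atg5 (chr10:44268089-44268338, plus strand): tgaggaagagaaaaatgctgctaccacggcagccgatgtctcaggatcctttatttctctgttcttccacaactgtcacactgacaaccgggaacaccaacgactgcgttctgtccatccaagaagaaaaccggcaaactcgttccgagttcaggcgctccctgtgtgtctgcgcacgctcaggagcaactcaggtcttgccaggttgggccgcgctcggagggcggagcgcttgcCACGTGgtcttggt
The first base of the match lies 108 bases before the start in Bnip3, 94 and 71 bases in Atg3 and 14 bases in Atg5. The log2 changes in STZ against Con were 1.76, 0.41 (adjusted p = 0.0526) and 0.17 (adjusted p = 0.182) in this order. A match describes the sequence and does not show that a factor binds there.

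Of 40 further core autophagy genes tested, 21 were called higher and 1 lower in STZ against Con (55%, against 38.5% of all genes, with a median log2 change of 0.29). After scaling 8 were higher and 2 lower (Trp53inp2 and Tecpr1), and this share of 25% was no higher than the 27.3% of all genes. Retreg1, the endoplasmic reticulum-phagy receptor also called FAM134B, was at 11.4, 14.5 and 12.3 RPKM in Con and 57.3, 71.98 and 29.7 RPKM in STZ, with a log2 change of 1.89 (adjusted p = 0.000761, SE 0.27). Bcl2l13, a mitophagy receptor (log2 change 0.64, adjusted p = 0.000709, SE 0.09), and Trp53inp1, a p53-induced protein that binds LC3 (log2 change 1.33, adjusted p = 0.00155, SE 0.22), rose as well. Its paralog Trp53inp2, the 1 gene of this list that was called lower, was at 77.5, 71.3 and 79.6 RPKM in Con and 21.4, 21.1 and 48.7 RPKM in STZ, with a log2 change of -1.41 (adjusted p = 0.00205, SE 0.25). All 4 of these calls were kept after scaling.

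Among 31 genes of mTORC1, AMPK and nutrient sensing, 20 were called higher and none lower (64.5%, median 0.40), and 7 higher and 1 lower (Lamtor2) after scaling (25.8%, again near the share of all genes). Mtor itself was at 5.34, 5.17 and 5.25 RPKM in Con and 7.06, 7.4 and 7.72 RPKM in STZ, apart in every mouse but called as deposited only, with log2 changes of 0.42 (adjusted p = 0.00232, SE 0.08) and 0.19 (adjusted p = 0.122) after scaling. Sesn2, a leucine sensor that restrains mTORC1, had a log2 change of 1.10 (adjusted p = 0.00146, SE 0.18). The folliculin partner Fnip1 (log2 change 0.88, adjusted p = 0.00121, SE 0.14) and the AMPK catalytic subunit Prkaa2 (log2 change 0.45, adjusted p = 0.00244, SE 0.08) were also higher, the latter not after scaling. Of 19 transcriptional regulators of autophagy genes 9 were called higher and none lower (47.4%, median 0.34), and 5 higher and 1 lower (Zkscan3) after scaling (31.6%). These included the coactivator Ppargc1a at 0.56, 0.77 and 0.68 RPKM in Con and 4.72, 8.84 and 2.98 RPKM in STZ (log2 change 1.86, adjusted p = 0.00105, SE 0.28). Foxo3 (log2 change 0.90, adjusted p = 0.00165, SE 0.15), the p62-linked stress factor Nfe2l2 (log2 change 0.77, adjusted p = 0.000831, SE 0.11) and its inhibitor Keap1 (log2 change 0.41, adjusted p = 0.00229, SE 0.07) were higher too, of which Keap1 was not called after scaling. Genes whose liver expression follows insulin were examined in the same mice, and 3 of them were called higher. Pck1, the rate-limiting enzyme of gluconeogenesis, rose by 2.76, Igfbp1 by 4.16 and the insulin receptor substrate Irs2 by 1.55 (log2).

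Markers of other cells moved between Con and STZ as well. Summed over 8 macrophage and Kupffer cell markers, of which Cd5l was the most abundant and 2 were called higher (Marco and Timd4), levels were 96.7, 64.3 and 86.6 RPKM in Con and 177, 212 and 96.2 RPKM in STZ, with STZ mouse 3 inside the range of Con. Sums over 7 stellate cell and fibroblast markers, led by Dcn, were 73.7, 84.9 and 74.05 RPKM in Con and 134, 109 and 118 RPKM in STZ, and Dcn was the 1 of the 7 called higher. The 8 hepatocyte markers summed to 43193, 60478 and 50491 RPKM in Con and 46488, 53451 and 39935 RPKM in STZ, which overlap, with 3 called higher (Cps1, Tat and Cyp2e1) and 3 lower (Apoa1, Ttr and Serpina1a). Of the rest, 2 of 6 endothelial genes (Pecam1 and Kdr) and 1 of 1 adipocyte gene (Fabp4) tested were higher. In turn 1 of 3 cholangiocyte (Sox9), 1 of 2 neutrophil (S100a9), 1 of 5 erythroid (Alas2) and 1 of 1 pancreatic gene (Cela1) were lower, against 0 of 1 lymphocyte gene. After scaling the calls of Timd4, Dcn, Cyp2e1, Pecam1 and Fabp4 were lost, and the hepatocyte gene Fgb was called lower. No skeletal muscle gene was high enough to be tested, and Lep of the adipocyte list was listed at 0 in all libraries. The part of these cells in the changes of the autophagy genes was not tested.

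STZ was also compared within mice given AOS, and the libraries compared are not those of STZ against Con. The spread was estimated over all 18 libraries, however, those of Con and STZ among them. A fit of AOS and STZ+AOS alone called fewer of the 39 genes, as given in the last section. In STZ+AOS against AOS, 18 of the 39 genes were called higher and 1, Ulk2, lower (48.7%), against 37.9% of all 10822 genes tested, of which 31.8% were higher and 6.11% lower. The median log2 change was 0.32 for the 39 genes and 0.21 for all genes. The mice did not overlap in 21 of the 39 genes, 19 of them higher and 2 (Ulk2 and Atg4c) lower in STZ+AOS, against 49.1% of all genes. After scaling 7 were called higher and the same 2 lower (23.1%, against 24.5% of all genes). Without STZ+AOS mouse 3, which carried the pancreatic transcripts, 14 were called higher and 1 lower, against 32.1% of all genes. Calls of Pik3c3 (adjusted p = 0.0792), Ambra1 (0.0837), Atg2b (0.056), Atg16l1 (0.0628) and Tfeb (0.0634) were lost without it, and Atg5 gained one (0.0145).

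Markers of other cells moved in this comparison too. Sums over the stellate cell and fibroblast markers were 92.5, 82.9 and 89.9 RPKM in AOS and 132, 142 and 155 RPKM in STZ+AOS, without overlap, with Dcn the 1 of 7 called higher. The macrophage and Kupffer cell markers summed to 79.2, 109 and 98.6 RPKM in AOS and 147, 112 and 124 RPKM in STZ+AOS, again without overlap, with Marco the 1 of 8 called. Hepatocyte markers, at 59835, 52561 and 55218 RPKM in AOS and 43356, 48578 and 49979 RPKM in STZ+AOS, were lower in every STZ+AOS mouse, with 2 genes called higher (Cps1 and Tat) and 3 lower (Apoa1, Ttr and Serpina1a). Neutrophil markers, led by S100a8, summed to 4.55, 3.16 and 3.24 RPKM in AOS and 21.1, 6.24 and 7.55 RPKM in STZ+AOS, with 2 of 3 called higher (S100a9 and Retnlg). Erythroid markers were lower in every STZ+AOS mouse, at 2959, 3837 and 3292 RPKM in AOS and 399, 2149 and 2142 RPKM in STZ+AOS, with Alas2 called lower. The pancreatic list summed to 31, 49.8 and 36.95 RPKM in AOS and 3.45, 5.16 and 79.97 RPKM in STZ+AOS, highest in STZ+AOS mouse 3. Its gene Cela1, called lower, was at 4.39 RPKM in that mouse, so other pancreatic genes made up most of its sum. Lyve1 of the endothelial list and Fabp4 of the adipocyte list were called higher, and no cholangiocyte or lymphocyte gene was called. Lyve1 was at 0.65, 0.85 and 0.68 RPKM in AOS and 1.52, 1.81 and 12.2 RPKM in STZ+AOS, with mouse 3 far above the others. After scaling the calls of Lyve1, S100a9 and Retnlg were lost. The part of these cells in the changes of the autophagy genes was not tested.

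Across the pair of comparisons 17 of the 39 genes were called higher in each, against 22.9% of all genes tested, and 15 were called in neither. Without STZ+AOS mouse 3 the 17 became 13, against 20.6% of all genes. The 6 genes Rb1cc1, Atg14, Map1lc3b, Nbr1, Bnip3 and Bnip3l were higher in both comparisons as deposited and after scaling, as were 8.07% of all genes. Bnip3 was at 89.2, 65.04 and 72.3 RPKM in AOS and 202, 188 and 342 RPKM in STZ+AOS, a log2 change of 1.64 (adjusted p = 0.000806, SE 0.28). The groups were far apart with or without STZ+AOS mouse 3, and without it the change was 1.37 (adjusted p = 0.00352). Atg14 was at 3.97, 4.67 and 4.45 RPKM in AOS and 7.01, 8.05 and 10.1 RPKM in STZ+AOS, a log2 change of 0.79 (adjusted p = 0.000395, SE 0.12), or 0.67 (adjusted p = 0.00135) without mouse 3.

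Map1lc3b was at 56.2, 50.7 and 53.8 RPKM in AOS and 77.04, 84.9 and 133 RPKM in STZ+AOS, a log2 change of 0.82 (adjusted p = 0.00278, SE 0.18). Nbr1, at 42.3, 41.4 and 40.99 RPKM in AOS and 63.2, 57.9 and 59.9 RPKM in STZ+AOS, changed by 0.53 (adjusted p = 0.000602, SE 0.09), with little spread in either group. Rb1cc1 was at 5.35, 5.33 and 6.03 RPKM in AOS and 8.37, 9.07 and 16.6 RPKM in STZ+AOS, so that mouse 3 carried much of its log2 change of 0.85 (adjusted p = 0.00173, SE 0.17), which was 0.57 (adjusted p = 0.000955) without it. Bnip3l, at 23.8, 23.1 and 24.6 RPKM in AOS and 36.2, 32.6 and 48.2 RPKM in STZ+AOS, changed by 0.67 (adjusted p = 0.00116, SE 0.12). The remaining receptors were also called higher, among them Sqstm1 at 189, 199.9 and 184 RPKM in AOS and 294, 245 and 518 RPKM in STZ+AOS (log2 change 0.81, adjusted p = 0.00913, SE 0.21), where mouse 3 again stood far above the others and the change was 0.49 (adjusted p = 0.0297) without it. Tfe3 changed by 0.53 (adjusted p = 0.0194, SE 0.16), or 0.26 (adjusted p = 0.0495) without mouse 3. Ulk2 was at 11.5, 14.3 and 12.3 RPKM in AOS and 7.05, 8.25 and 8.61 RPKM in STZ+AOS, all lower. Its log2 change was -0.61 (adjusted p = 0.00281, SE 0.13) and -0.83 (adjusted p = 0.00129) after scaling, where it was the 1 gene called lower in both comparisons.

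Of the other members, 5 (Gabarapl1, Ulk1, Map1lc3a, Atg2a and Atg10) were called higher in STZ against Con alone and 1, Tfeb, in STZ+AOS against AOS alone. Gabarapl1 was at 171, 189 and 177 RPKM in AOS and 148, 294 and 382 RPKM in STZ+AOS, where mouse 1 lay below all AOS mice, and its log2 change of 0.51 (adjusted p = 0.127, SE 0.26) was not called. Without mouse 3 it was 0.22 (adjusted p = 0.502). Ulk1 was at 20.4, 16.9 and 17.4 RPKM in AOS and 18.6, 21.7 and 25.4 RPKM in STZ+AOS, overlapping, with a log2 change of 0.25 (adjusted p = 0.141, SE 0.13), or 0.14 (adjusted p = 0.433) without mouse 3. Tfeb, conversely, was at 3.86, 2.19 and 2.44 RPKM in AOS and 4.8, 3.78 and 6.33 RPKM in STZ+AOS and changed by 0.64 (adjusted p = 0.0138, SE 0.18). This call was lost without mouse 3, where the change was 0.48 (adjusted p = 0.0634). The difference between the 2 STZ effects was tested as an interaction and passed for none of the 39 genes, nor for any gene (0% of 10822). At an unadjusted p under 0.05 it held in limma for Ulk1 alone of the 39, against 5.4% of all genes, with a log2 difference of -0.51 (adjusted p = 0.856). For Gabarapl1 the difference was -0.56 (adjusted p = 0.858, SE 0.36).

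Of the other members named by value, Uvrag was at 5.94, 7.16 and 6.97 RPKM in AOS and 7.86, 10.6 and 13.6 RPKM in STZ+AOS, a log2 change of 0.58 (adjusted p = 0.009, SE 0.15). Optn was at 28.9, 27.6 and 28.1 RPKM in AOS and 40.8, 45.2 and 35.4 RPKM in STZ+AOS (log2 change 0.50, adjusted p = 0.0211, SE 0.16). The values of Atg12 were 9.47, 10.2 and 10.1 RPKM in AOS and 14.6, 12.9 and 17.8 RPKM in STZ+AOS (log2 change 0.55, adjusted p = 0.00271, SE 0.12). For these 3 genes the groups did not overlap, and of the 3 Atg12 alone was called after scaling. Becn1, at 24.3, 23.6 and 23.5 RPKM in AOS and 21.2, 24.4 and 26.2 RPKM in STZ+AOS, overlapped and had a log2 change of 0.00. The conjugation enzymes Atg7 and Atg10 were not called. Atg7 was at 14.3, 13.97 and 13.01 RPKM in AOS and 12.1, 18.1 and 13.3 RPKM in STZ+AOS (0.05). Atg10 was at 1.9, 2.23 and 2.44 RPKM in AOS and 1.74, 3.3 and 1.62 RPKM in STZ+AOS (-0.02). Atg4b, at 8.79, 8.03 and 8.42 RPKM in AOS and 9.21, 9.38 and 10.3 RPKM in STZ+AOS, and Atg16l2, at 6.87, 5.74 and 6.46 RPKM in AOS and 7.49, 3.38 and 4.95 RPKM in STZ+AOS, were not called either (0.17 and -0.28). In the related lists, against 37.9% of all genes, 15 of 40 further core autophagy genes were higher and 1, Trp53inp2, lower (40%), while 14 of 31 genes of nutrient sensing (45.2%) and 9 of 19 transcriptional regulators (47.4%) were higher and none lower. After scaling, against 24.5% of all genes, these lists had 5 higher and 3 lower (Atg101, Tmem41b and Trp53inp2), 4 higher and 1 lower (Lamtor2), and 3 higher and 1 lower (Nr0b2) in this order.

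**Figure D3:**
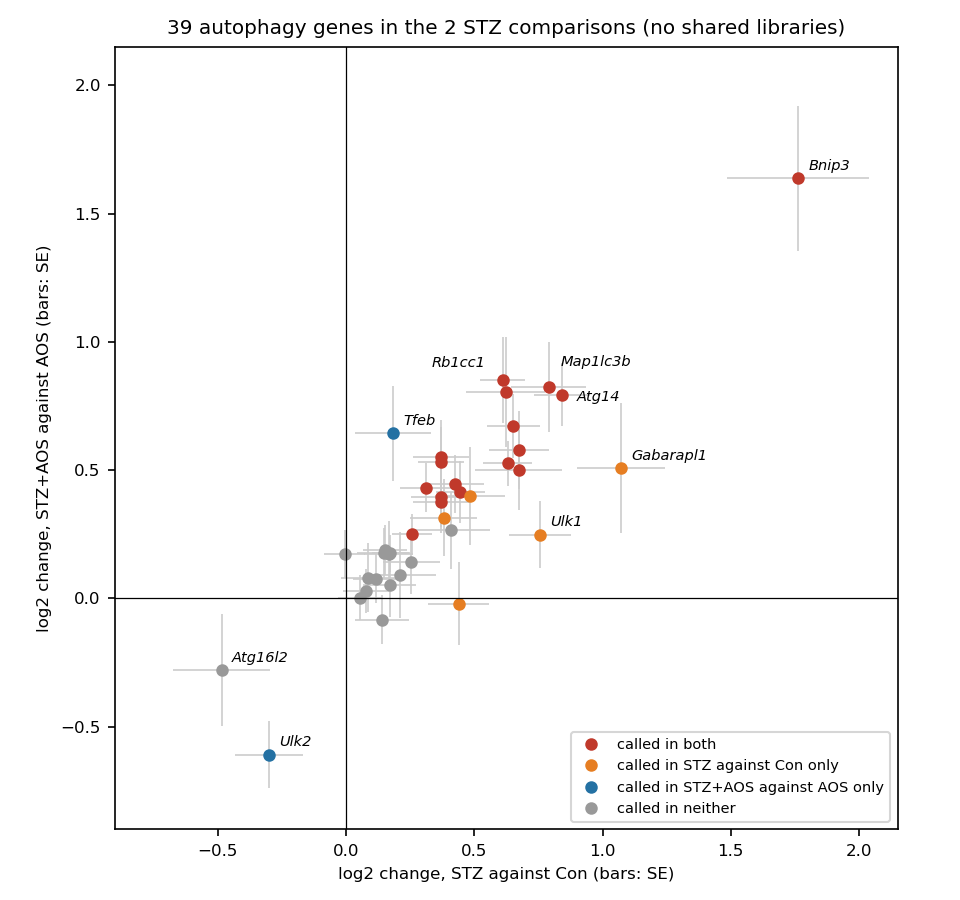
Log2 change of the 39 autophagy genes in STZ against Con (x axis) and in STZ+AOS against AOS (y axis), on log2(RPKM + 1) with SE bars; the comparisons use different mice, and colours give the calls. Bnip3 stands alone at upper right (1.76 and 1.64), 17 genes are called higher in both, and Ulk2 lies at lower left.

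AOS alone was set against Con, and no autophagy gene was called, as for all but 1 gene of the transcriptome (0.00924%). At an unadjusted p under 0.05 limma gave 3 of the 39, Ulk1, Atg14 and Bnip3l, all higher in AOS, where 7.22% of all genes passed. In the values as deposited the AOS mice lay above the Con mice without overlap in 21 of the 39 genes and below in none, against 24.4% of all genes without overlap. After median-ratio scaling this fell to 7 above and 1 below, against 23.5%, so most of this separation moved with the scale of the libraries. Ulk1 came nearest to a call, at 11.9, 12.01 and 12.97 RPKM in Con and 20.4, 16.9 and 17.4 RPKM in AOS, a log2 change of 0.53 (adjusted p = 0.421, SE 0.13). Bnip3, at 89.2, 65.04 and 72.3 RPKM in AOS, differed from Con by 0.55 (adjusted p = 0.703, SE 0.28). STZ+AOS against STZ gave 0 calls among the 39 genes and 0% of all genes, and 3 of the 39 (Rb1cc1, Atg12 and Bnip3l, all higher) at an unadjusted p under 0.05 in limma, where 6.07% of all genes passed.

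The transplanted groups were compared with Con and with STZ; these comparisons share the Con or the STZ mice, so their values are set side by side only. Against Con, A10-FMT had 13 autophagy genes higher and 1 lower (35.9%, against 18.4% of all genes), and Con-FMT 12 higher and 1 lower (33.3%, against 19.4%). After scaling either group had 3 higher and 1 lower, against 11% of all genes for A10-FMT and 8.24% for Con-FMT. The 3 were Gabarapl1, Bnip3 and Nbr1, and the lower gene was Atg16l2. The counts as deposited fell when a mouse was left out, as did the share of all genes called. Fewer mice also make calls harder, so these counts do not show that 1 mouse carried the result. Ranges over every mouse left out are given in the last section. Without A10-FMT mouse 1, 2 or 3 the count in A10-FMT was 6, 5 or 4 (against 8.18%, 10.9% and 5.89% of all genes). Without Con mouse 1 or 3 it was 4 each time (5.17% and 6.5%). In Con-FMT it was 3 or 7 without Con-FMT mouse 1 or 3 (5.71% and 9.46%), and 4 or 3 without Con mouse 1 or 3 (5.82% and 6.67%).

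Gabarapl1 was at 242, 233 and 317 RPKM in A10-FMT and 284, 206 and 266 RPKM in Con-FMT, which differed from Con by 1.04 (adjusted p = 0.00374, SE 0.17) and 0.98 (adjusted p = 0.00638, SE 0.17) (log2). Every transplanted mouse lay above every Con mouse. Bnip3 was at 122, 125 and 154 RPKM in A10-FMT and 141, 99.5 and 115 RPKM in Con-FMT, which fall between the Con mice and STZ mice 1 and 2. Its log2 changes from Con were 1.37 (adjusted p = 0.00995, SE 0.28) and 1.19 (adjusted p = 0.0168, SE 0.28). Nbr1 was at 54.9, 55.6 and 53.4 RPKM in A10-FMT and 60.1, 48.8 and 51.7 RPKM in Con-FMT, changed from Con by 0.54 (adjusted p = 0.00574, SE 0.10) and 0.50 (adjusted p = 0.00835, SE 0.10).

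Bnip3l was at 26.7, 25.8 and 29.5 RPKM in A10-FMT and 27.02, 26.5 and 24.9 RPKM in Con-FMT, called against Con as deposited (0.51 and 0.45) and not after scaling. Map1lc3b had 60.96, 58.9 and 75.6 RPKM in A10-FMT and 70.2, 60.7 and 73.8 RPKM in Con-FMT, again called as deposited only (0.48 and 0.55). Atg16l2 was at 3.45, 3.39 and 2.81 RPKM in A10-FMT and 2.7, 2.44 and 2.48 RPKM in Con-FMT, below every Con mouse, and differed from Con on the log2 scale by -0.69 (adjusted p = 0.0312, SE 0.19) and -0.94 (adjusted p = 0.0105, SE 0.19). Conjugation enzymes that were not called in STZ were called as deposited here, among them Atg7 (0.36 and 0.35) and Atg4b (0.23 and 0.30), but neither was called after scaling. Levels of Atg7 were 16.8, 18.02 and 18.3 RPKM in A10-FMT and 19.7, 16.1 and 17.04 RPKM in Con-FMT, and those of Atg4b 9.68, 8.71 and 9.55 and 10.3, 9.39 and 9.73 RPKM, all above the Con mice.

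Markers of other cells also differed between Con and the transplanted mice. Of 8 hepatocyte markers Cps1, Tat and Cyp2e1 were called higher in each transplanted group and none lower, with Cyp2e1 not called after scaling in Con-FMT. Led by Alb, these markers summed to 56670.0, 51132 and 56972 RPKM in A10-FMT and 43399, 52351 and 47532 RPKM in Con-FMT, within the range of Con. The cholangiocyte gene Sox9 (1 of 3) and the pancreatic gene Cela1 (1 of 1) were called lower in both groups on either scale. The pancreatic list summed to 10.1, 9.25 and 10.1 RPKM in A10-FMT and 6.93, 14.4 and 7.98 RPKM in Con-FMT, below 32.2, 41.2 and 37.4 RPKM in Con. Cela1 made up most of each of these sums. S100a9, 1 of 2 neutrophil genes tested, was called lower in A10-FMT on either scale. The adipocyte gene Fabp4 was called higher in Con-FMT as deposited and not after scaling. The adipocyte list summed to 8.84, 8.64 and 7.31 RPKM in Con, 18.4, 15.7 and 14.9 RPKM in A10-FMT and 24.5, 10.5 and 24.4 RPKM in Con-FMT. Fabp4 made up nearly all of these sums. In these mice Adipoq was at 0.06 RPKM or less, and Plin1 and Lep were at 0. No gene of the stellate cell and fibroblast list was called, but its sums of 103, 104 and 112 RPKM in A10-FMT lay above all Con mice, while those of Con-FMT, at 118, 72.5 and 145 RPKM, overlapped Con. No macrophage, endothelial, lymphocyte or erythroid gene was called against Con. The erythroid markers, led by Hba-a1, summed to 9834, 3435 and 4216 RPKM in Con-FMT and 1779, 3166 and 3454 RPKM in A10-FMT, highest in Con-FMT mouse 1, which also had the highest value of its group in 29 of the 39 genes. The part of these cells in the changes of the autophagy genes was not tested.

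Both initiation genes that rose in STZ were also above Con in the transplanted mice. Ulk1 was at 17.2, 17.04 and 14.9 RPKM in A10-FMT and 14.6, 19.7 and 14.7 RPKM in Con-FMT, above the Con mice, and 1 of the 6 mice lay within the range of STZ. Changes from Con were 0.39 (adjusted p = 0.0449, SE 0.12) and 0.37 (adjusted p = 0.0495, SE 0.12) (log2), neither of them called after scaling. Rb1cc1, at 5.99, 6.04 and 7.11 RPKM in A10-FMT and 6.6, 6.25 and 6.31 RPKM in Con-FMT, lay above every Con mouse and below every STZ mouse. Becn1 was at 23.5, 24.8 and 25.04 RPKM in A10-FMT and 25.4, 24.1 and 24.8 RPKM in Con-FMT, above the Con mice but not called (0.16 and 0.18), and its change was -0.04 and -0.04 after scaling.

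Among the remaining members named, Uvrag was called in A10-FMT alone, with 7.58, 8.68 and 9.12 RPKM there and 8.5, 6.52 and 8.13 RPKM in Con-FMT and adjusted p of 0.0188 and 0.0513. Optn was likewise called in A10-FMT alone, at 32.9, 36.98 and 40.05 RPKM in A10-FMT and 42.1, 30.7 and 33.9 RPKM in Con-FMT, with adjusted p of 0.0397 and 0.0525. For neither gene was the difference between A10-FMT and Con-FMT called (adjusted p = 0.999 for Uvrag and 0.999 for Optn). Sqstm1 was at 249.9, 245 and 237 RPKM in A10-FMT and 273, 203 and 236 RPKM in Con-FMT, above all Con mice and short of a call (adjusted p = 0.0524 and 0.0734). Atg10 was at 2.31, 2.88 and 2.98 RPKM in A10-FMT and 2.89, 2.53 and 2.07 RPKM in Con-FMT, called higher than Con as deposited (0.47 and 0.38). Levels of Atg12 were 11.2, 11.96 and 10.3 RPKM in A10-FMT and 12.6, 9.62 and 10.5 RPKM in Con-FMT, and Tfeb was at 4.2, 3.92 and 4.69 RPKM in A10-FMT and 4.85, 3.27 and 3.73 RPKM in Con-FMT. Neither was called against Con.

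**Figure D4:**
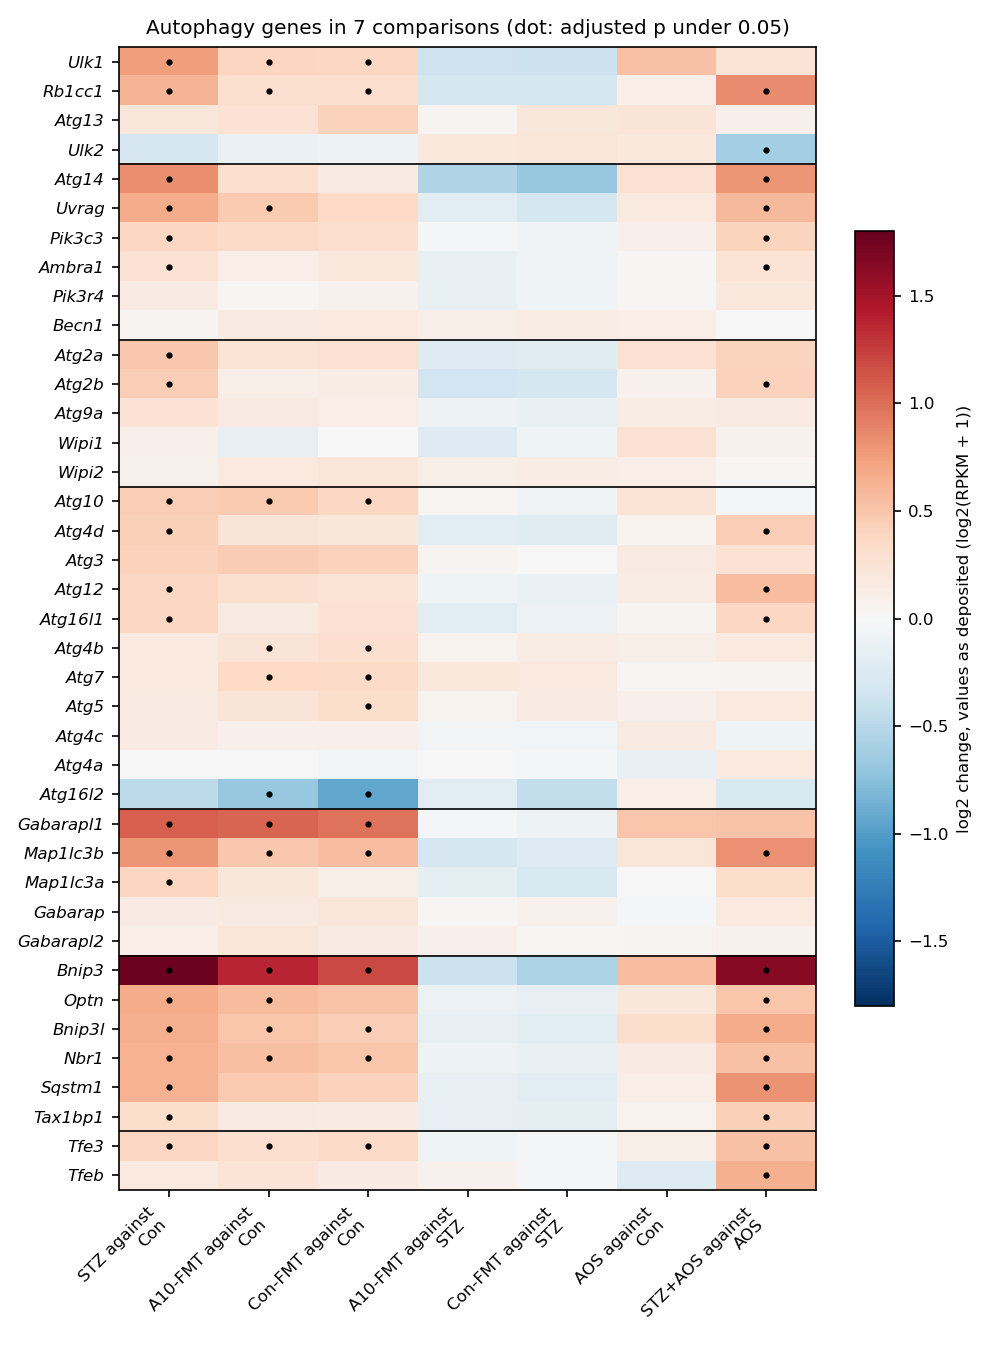
Log2 change (colour, values as deposited on log2(RPKM + 1)) of the 39 autophagy genes, in rows by role, in 7 comparisons, in columns; a dot marks an adjusted p under 0.05. Dots fill the 6 cargo receptors in STZ against Con and in STZ+AOS against AOS, and the columns of A10-FMT and Con-FMT against STZ and of AOS against Con hold no dot.

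Against STZ, neither transplant moved an autophagy gene past the threshold. A10-FMT against STZ called 0 of the 39 genes, where 0.226% of all genes were called, and Con-FMT against STZ called 0, where 0.00943% were. At an unadjusted p under 0.05 limma gave 4 and 6 of the 39, all lower, where 20.9% and 20.1% of all genes passed, and Ulk1, Rb1cc1, Atg14 and Atg2b were the 4 for A10-FMT. The mice did not overlap in 8 genes for A10-FMT (1 higher and 7 lower than STZ), against 21.5% of all genes, and in 7 for Con-FMT (2 higher and 5 lower), against 17.7%. Atg14 came closest, at 4.44, 4.39 and 4.61 RPKM in A10-FMT and 4.42, 3.98 and 3.5 RPKM in Con-FMT, below all STZ mice. Its log2 changes from STZ were -0.54 (adjusted p = 0.0611, SE 0.11) and -0.68 (adjusted p = 0.0565, SE 0.11). After scaling they were -0.48 (adjusted p = 0.0451) and -0.64 (adjusted p = 0.0386), the only calls among the 39 genes on that scale, where 0.896% and 0.689% of all genes were called. The receptors that were higher in STZ were not called lower here, with log2 changes of -0.39 and -0.57 for Bnip3 and of -0.09 and -0.13 for Nbr1.

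This count rested on STZ mouse 3. Without it 7 genes were lower and 1 higher than STZ in each transplanted group, against 12.7% of all genes called for A10-FMT and 15.5% for Con-FMT. Ulk1, Rb1cc1, Atg14, Atg2a, Atg4d and Bnip3 were lower in both, Map1lc3b in A10-FMT and Atg16l2 in Con-FMT, and the higher gene was Ulk2. Bnip3 then had log2 changes of -0.76 (adjusted p = 0.0271) in A10-FMT and -0.95 (adjusted p = 0.0105) in Con-FMT, and Ulk1 of -0.45 (adjusted p = 0.044) and -0.46 (adjusted p = 0.0356). Gabarapl1 was not called lower than STZ even then. No cell type marker was called against STZ on either scale, with all 3 STZ mice kept. Macrophage sums in STZ mice 1 and 2 (177 and 212 RPKM) lay above all transplanted mice (50.6 to 143), with STZ mouse 3 at 96.2. Erythroid sums in Con-FMT (3435 to 9834 RPKM) lay above all STZ mice (593 to 2455). Pancreatic sums in A10-FMT (9.25 to 10.1) lay above all STZ mice too (3.58 to 8.86). Cela1 made up most of these sums, and alone it overlapped, at 7.66 to 8.71 RPKM in A10-FMT and 2.96 to 8.73 RPKM in STZ. In these mice each other pancreatic gene was at 1.34 RPKM or less. How far these cells contribute to the autophagy changes was not tested. A10-FMT against Con-FMT gave 0 calls among the 39 genes and 0% of all genes, with 0 of the 39 at an unadjusted p under 0.05 in limma, where 2.86% of all genes passed, and log2 differences of -0.16 to 0.25.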

How the data were processed

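Liver RNA of 18 ICR mice (6 groups of 3) was analysed from the table the authors deposited, in which each value is RPKM by the methods of the study. The methods name SOAPaligner and the processing notes of the submitters name Bowtie 0.12.2 and mm10 (GRCm38), so the aligner of these values is uncertain. RPKM were not normalized further in the main analysis. Genes with 1 RPKM or more in at least 3 libraries were kept and 1 was added before log2. In R 4.3.3, limma 3.58.1 (lmFit, contrasts.fit, eBayes with trend) gave two-sided tests between group means, with Benjamini-Hochberg adjustment over all genes. Groups without AOS treatment of the mice themselves (12 libraries) formed 1 model of 10602 genes, and all 18 libraries another of 10822 genes for comparisons with AOS or STZ+AOS. Per gene, 3 against 3 mice is a small design, and fold changes of genes near 1 RPKM are understated.

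The genes and lists were chosen with earlier results of these data known. Named genes were members called in STZ against Con as deposited and after median-ratio scaling (at most 12), the 6 with the smallest adjusted p in each other comparison, 1 fixed gene per role, and from related lists the 4 called genes with the smallest adjusted p, with Igfbp1, Pck1 and Mtor. Alternatives were median-ratio scaling, median centring, quantile normalization, limma without trend, a pseudocount of 0.1, other filters, other sets of groups, a replicate block, the limits of the study's methods (adjusted p of 0.001, log2 change of 1) and leaving out each mouse. The procedure was tested on simulated data. Positions and shared windows of 50 bases came from GENCODE M21, promoters from RefSeq. A result of the list of insulin-dependent genes is not reported here. The main tests treated all mice as unpaired, and pairing by number was run only as the replicate block among the alternatives. A10-FMT with Con-FMT was the only pair of groups in which the deviations of all 3 same-numbered mice correlated above 0.1 (0.121 to 0.291). Where RefSeq held more than 1 promoter of a gene, the first was used.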

Additional observations from a re-analysis of the deposited data

How the results depend on the processing

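Counts of called autophagy genes depended on the scaling of libraries, on the limits and on the mice kept. Under median-ratio scaling, median centring and quantile normalization in this order, the 22 genes called in STZ against Con became 12, 13 and 13, the 19 in STZ+AOS against AOS became 9, 10 and 10, the 14 in A10-FMT against Con became 4, 5 and 4, and the 13 in Con-FMT against Con became 4, 4 and 4. Under the limits of the study's methods these 4 counts were 0, 1, 0 and 0. In Con-FMT against STZ, where none was called, 1 was called under each of the 3 scalings, with 1 RPKM required in every library and in the model of all 6 groups, and in A10-FMT against STZ 1 under median-ratio scaling. The model of all 6 groups gave 9 in A10-FMT against Con and 8 in Con-FMT against Con, no filter gave 7 in A10-FMT against Con, and a fit of the compared groups alone gave 11 in STZ+AOS against AOS. Leaving out 1 mouse at a time gave 14 to 24 in STZ against Con, 0 to 8 in either transplanted group against STZ (8 without STZ mouse 3), 4 to 10 in A10-FMT against Con, 3 to 12 in Con-FMT against Con and 15 to 20 in STZ+AOS against AOS. The other counts, all 0, stayed 0 under every alternative run.

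Deviations of same-numbered mice correlated above 0.1 in 15 of 45 pairs, and in all 3 pairs for 1 of 15 pairs of groups, A10-FMT and Con-FMT (0.121 to 0.291), between which no gene was called with or without the block. In each other pair of groups at least 1 same-numbered pair was not above 0.1. Ranges were -0.14 to -0.06 for STZ and Con, 0.0635 to 0.145 for Con and A10-FMT, and -0.241 to 0.472 for STZ and Con-FMT. The labels do not say whether mice of the same number share anything else. With the replicate block 21 genes were called in STZ against Con, 19 in STZ+AOS against AOS, and 7 in A10-FMT against Con and in Con-FMT against Con, and the counts of 0 stayed 0.

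In STZ against Con 12 genes that were not called on either scale had a log2 change above 0 as deposited and below 0 after median-ratio scaling. The 4 of them named by the rule went, under median-ratio scaling, median centring and quantile normalization in this order, as follows: Becn1 to -0.204, -0.193 and -0.221, Atg7 to -0.080, -0.074 and -0.108, Atg4b to -0.067, -0.073 and -0.079, and Tfeb to -0.030, -0.063 and -0.008 (log2). Leaving out 1 mouse at a time gave -0.035 (without STZ mouse 3) to 0.104 for Becn1. The cause was not tested. Depth in reads is unknown, and with 3 mice a group a difference that was not called is not shown to be absent.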
